A study of Homo sapiens with 17 samples.

Results

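The sites described here are single-base polymerase positions at which the pausing time was long in run-on reactions without sarkosyl and short in reactions with it. Long and short are relative to the positions shared by all 4 tables, not to all positions of a table. Of 2967 positions present in all 4 deposited tables of pausing times, 367 (12.4%) were above the median of the shared positions in both sarkosyl-free tables and below it in both sarkosyl tables, and they are called members below. The reverse pattern held 371 positions (12.5%), 366 (12.3%) were long in all 4 tables, 397 (13.4%) were short in all 4, and 1466 (49.4%) had any other pattern. The members were chosen by these pausing times, so the contrast between the buffers is given as a description and was not tested.

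The tables come from HEK293 cells, an established human embryonic kidney line, assayed by time-variant precision run-on sequencing (TV-PRO-seq). Per the labels, run-on was allowed for 0.5, 2, 8 or 32 min, in buffer with sarkosyl or in buffer free of it, and each buffer was run under 2 replicate numbers, so that 1 table stands for 1 buffer and 1 replicate number and rests on 4 libraries. No other treatment separates the 16 libraries, and the labels name no batch. Buffer and any unnamed batch that goes with it cannot be told apart. The tables hold 41769 to 66089 positions each and give no read numbers, so the depth behind a position is unknown, and no expression levels with which the cell line could be checked. The deposited pausing time is the reciprocal of the deposited median rate. Its unit was not stated, and times are given as deposited.

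RNA polymerase II often halts shortly after it starts a transcript, held by the factors NELF and DSIF until the kinase P-TEFb releases it. A run-on reaction restarts polymerases that are already engaged, and a position from which polymerases move on slowly keeps its signal over a longer run-on. Sarkosyl is an anionic detergent added to run-on reactions because it removes many chromatin-bound proteins without detaching engaged polymerase.

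The bases around members are shown first because the rule did not use them. Near a start, their shares differed between members and the other shared sites. Sequences run 5′ to 3′ on the transcribed strand of GRCh38 and were read from GENCODE release 29 transcripts. The capital marks the site, that is, the base at the RNA 3′ end. Each line holds 20 bases before the site and 9 after it. The first 8 belong to the 10 members with the widest gap between buffers. The others are all members, in the 10 genes with most members, for which a sequence could be read.
RMND5A chr2:86720321-86720350 (+): ccgggagaaccaggtcatcgGtcggttccc
RPL13 chr16:89563805-89563834 (+): tgtgcccggtaaccatggtcCtcttgctct
HEXIM1 chr17:45148512-45148541 (+): agggaaagtcgggggaggacGcggaagagg
LINC00205 chr21:45288102-45288131 (+): ggctgtggttcgcggcggtgCtgtcgcggg
MRPL18 chr6:159790537-159790566 (+): gagtcgtccgtgaggaaaaaGaggcgaggc
EPB41L4A-AS1 chr5:112160891-112160920 (+): tgtggtttttgctctgggtcCtctgggatg
TRIM36 chr5:115169841-115169870 (-): cgggattcccggggtagtcgCtgggagcaa
SNHG12 chr1:28581823-28581852 (-): cggtgtcgacttactagctgCaagcctctg
HNRNPA2B1 chr7:26199954-26199983 (-): gagcttggatctttagagtcCtgcgcacct
HNRNPA2B1 chr7:26200656-26200685 (-): ggcagttctcactacagcgcCaggacgagt
CHST8 chr19:33621978-33622007 (+): gcaagccggatccggcagtgCtgcggggag
CHST8 chr19:33621998-33622027 (+): ctgcggggaggagagaggacGaggcggcgg
HSP90AB1 chr6:44247135-44247164 (+): ctgggtatcggaaagcaagcCtacgttgct
SRSF3 chr6:36594383-36594412 (+): gtgagtgagagagttggttgGtgttgggcc
SRSF3 chr6:36594410-36594439 (+): gccggaggaaagcgggaagaCtcatcggag
RAN chr12:130877193-130877222 (+): ctcatacgattactatagtcCagtttacca
RAN chr12:130877365-130877394 (+): gtttcttaagatctgaattgCtgtgtatgt
USP53 chr4:119212729-119212758 (+): cggtactgtggcagcagtcaGtgtgtctgg
RPL37 chr5:40832257-40832286 (-): caagcagaattccaggagtcCttgaagcag
RPL37 chr5:40834523-40834552 (-): cgccgctgtggctctaaggcCtaccacctt
NOP56 chr20:2652667-2652696 (+): aggagtggttgcggggcgcgGgcgacgcga
NOP56 chr20:2652673-2652702 (+): ggttgcggggcgcgggcgacGcgacggtgg

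Sequence was compared among sites 0 to 100 bp after an annotated transcription start, where 119 of 129 members (92.2%) and 479 of 542 other shared sites (88.4%) had one. The site was C in 68 members (57.1%) and in 38.4% of the others, and G in 50 members (42.0%) and in 60.5% of the others. The base after the site was T in 72 members (60.5%) and in 39.5% of the others. C at the site followed by T, as in LINC00205, EPB41L4A-AS1, TRIM36 and the first CHST8 site above, was present in 48 members (40.3%) and in 75 of the others (15.7%). A site G preceded by C, as in HEXIM1 and the second CHST8 site, was present in 30 members (25.2%) and in 250 of the others (52.2%). These base combinations were picked after the share of each base at each offset had been seen.

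Sites are not replicates, so each share is given with the range of the same difference when sites are chosen on 1 table of each buffer. There are 4 such pairs of tables, and they are not independent. Each choice, of 704 to 760 sites, holds all 367 members, so the same direction in every pair is no separate support. C followed by T was 24.7 percentage points more frequent in members than in the others, and 13.4 to 23.2 points over the pairs. The difference for C before a site G was -27.0 points, and -22.3 to -15.0 points over the pairs. For both, the direction was the same in all 4 pairs, whose site sets all include the members.

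The base at the site and the base after it varied separately over the patterns in the same window. Among sites long in all 4 tables, T came after the site in 72% and the site itself was C in 18.0% (n = 50). Among sites short in all 4 tables, T came after the site in 21.2% and the site was C in 46.5% (n = 99). Sites of the reverse pattern had C followed by T in 7.14% (n = 42). C followed by T was at 6.00% in the sites long in all 4 tables and 16.2% in those short in all 4, both below the 40.3% of the members.

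The promoters of genes with such a site were also compared. RefSeq windows on GRCh38.p14, from 250 bp before to 50 bp after the start, matched 92 of 108 coding genes with a member 0 to 100 bp after a start (85.2%) and 365 of 445 coding genes with other sites only (82.0%). The median GC content was 65.2% in the first group and 65.0% in the second, against 58.3% over all 27305 promoters. The letters TATAAA, searched on both strands, were found in 13.0% of the promoters with a member, 8.77% of those without and 12% of all promoters. GC content of the promoters therefore differed little between genes with and without a member, while the bases at the site itself differed.

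The pausing times that chose the members were as follows. The medians that served as cuts were 1.22 and 1.28 for the sarkosyl tables and 1.32 and 1.43 for the sarkosyl-free tables, replicate 1 first here and in every pair of values below. In sarkosyl replicate 1 the members ranged from 0.440 to 1.20, with a median of 0.767. In sarkosyl replicate 2 they ranged from 0.566 to 1.28, with a median of 0.920. The cuts bound these times from above. In sarkosyl-free replicate 1 the members ranged from 1.32 to 40, with a median of 3.13. In sarkosyl-free replicate 2 they ranged from 1.44 to 143, with a median of 6.21. Here the rule sets no upper bound, and the range was wide in both tables. In replicate 2 the members' median of 6.21 was below the 8.00 of all sites of that table. On the log2 scale, after each table was centred on its cut, the median absolute difference between replicates was 1.03 without sarkosyl and 0.26 with it, and it was 0.82 and 0.31 in sites short in all 4 tables. The median difference between buffers, sarkosyl-free minus sarkosyl, was 2.24 (quartiles 1.62 and 3.08), against -0.22 over all shared sites, a direction that the rule fixes.

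**Figure D1:**
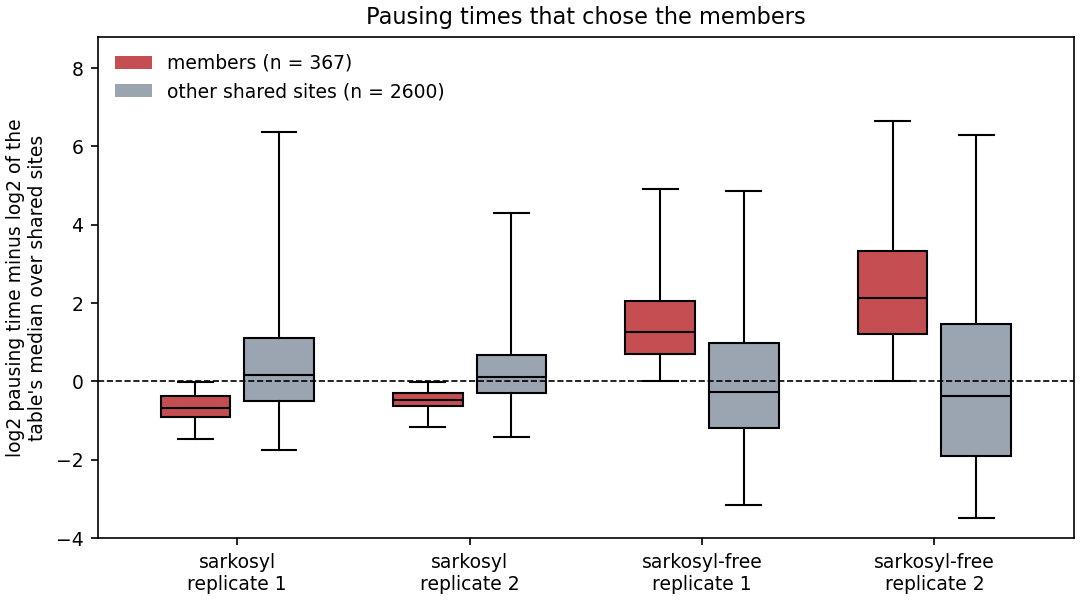
Distribution of log2 pausing time, centred on the median of the 2967 shared sites, in each of the 4 tables for the 367 members and the 2600 other shared sites. Boxes span the quartiles with a line at the median and whiskers reach the lowest and highest site; members lie below 0 in the sarkosyl tables and above 0 in the sarkosyl-free tables by the rule.

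The distance of a member from the cuts varied. The gap, defined as the smaller centred sarkosyl-free value minus the larger centred sarkosyl value on the log2 scale, ranged from 0.08 to 5.54 with a median of 1.42. It was over 1 in 261 members (71.1%), over 2 in 105 (28.6%) and over 4 in 8 (2.18%). The member closest to a cut lay in the 3′ UTR of ADAMTS1, 0.0018 log2 units inside it, and the non-member closest to membership was an intergenic site on chromosome 5, -0.0062 on the same measure.

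The authors' own quartiles of the rate bound how firmly a site sits on its side. With sarkosyl, both quartiles were on the members' side of the cut for 196 members (53.4%) in replicate 1 and 67 (18.3%) in replicate 2. Without it, they were so for 241 (65.7%) and 303 (82.6%). They were so in all 4 tables for 31 members (8.45%). For the other members, a cut lay within the authors' interquartile range in at least 1 table. Asking for at least 0.5 log2 units beyond each cut kept 97 members. Cuts over all sites of each table, in place of the shared sites, gave 141 sites, of which 123 were among the 367 members and 18 were not.

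The tables left out of a choice give a check of the replicates. When sites were chosen on 1 sarkosyl-free and 1 sarkosyl table, 704 to 760 sites (23.7% to 25.6%) were kept. Of these, 60.9% to 66.2% were also long in the other sarkosyl-free table, against 49.9% to 50% of all shared sites. In the sarkosyl table not used, 77.1% to 78.1% were also short, against 49.8% to 50% of all shared sites. Both held for 48.3% to 52.1%, against 23.7% to 25.6% of all shared sites, and both failed for 7.81% to 9.47%. In every pair of tables the sites for which both held were the same 367 members. The range of 48.3% to 52.1% therefore reflects only the number of sites chosen, and its recurrence over the pairs is no separate support. The sarkosyl side of the pattern recurred in more sites than the sarkosyl-free side.

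The 10 members with the widest gap showed times under 1 in both sarkosyl tables and of 10.0 or more in both sarkosyl-free tables. They were ranked on the pausing times that chose them, and the rule itself leaves no overlap between buffers in any member. The widest gap, 5.54, was at a site 168 bp after a start in the 5′ UTR of RMND5A, a subunit of an E3 ubiquitin ligase complex, with pausing times of 0.745 and 0.832 with sarkosyl and 40 and 76.9 without it. HEXIM1, which sequesters and inhibits P-TEFb, had a site 30 bp after its start with times of 0.574 and 0.672 with sarkosyl and 27.8 and 14.5 without. RPL13, a protein of the large ribosomal subunit, had a site in annotated 3′ UTR with times of 0.813 and 0.901 with sarkosyl and 23.3 and 20.8 without.

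Of the other 7, 5 were 16 to 60 bp after a start. MRPL18, a protein of the mitochondrial ribosome, had times of 0.708 and 0.838 with sarkosyl and 14.3 and 41.7 without. TRIM36, a tripartite-motif ubiquitin ligase, had times of 0.503 and 0.661 with sarkosyl and 10.3 and 32.3 without. The long non-coding genes LINC00205, EPB41L4A-AS1 and SNHG12 had 0.483 to 0.735 with sarkosyl and 10.0 to 58.8 without, and the latter pair host small nucleolar RNAs. The remaining 2 were an intergenic site on chromosome 8, with 0.822 and 0.664 against 23.3 and 40, and a site on KI270733v1, a contig assigned to chromosome 22 without a position, with 0.544 and 0.672 against 20 and 43.5. That contig carries ribosomal RNA repeats, and near-identical copies make its position uncertain.

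**Figure D2:**
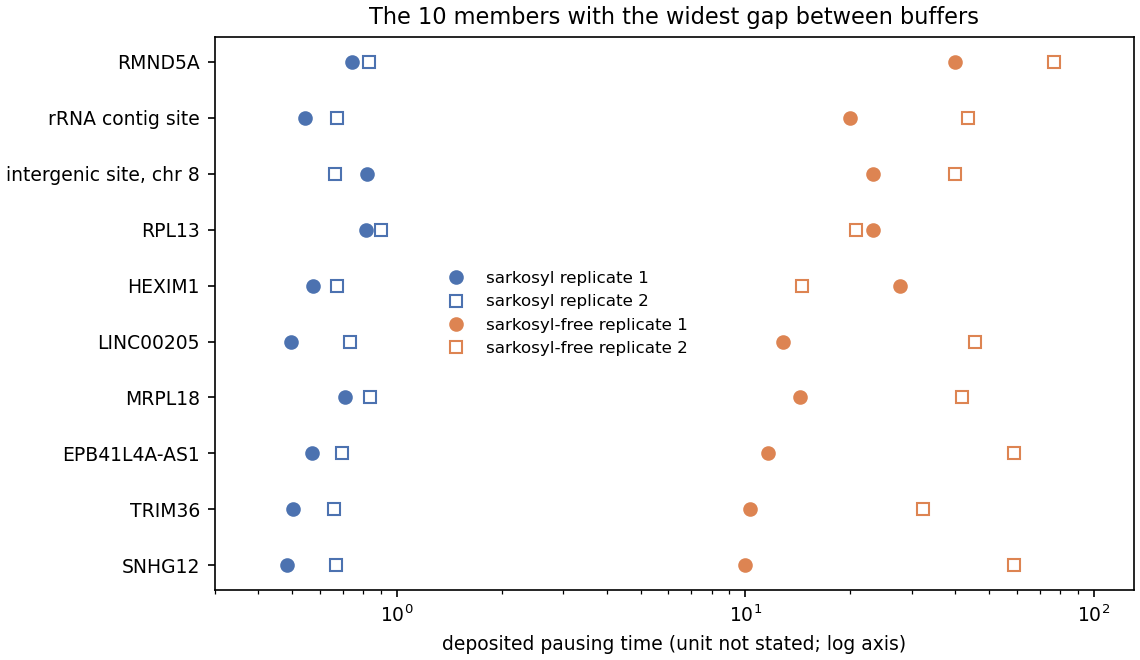
Deposited pausing time on a log axis for the 10 members with the widest gap between buffers, 1 row per site and 1 symbol per table. In every row both sarkosyl values are below 1 and both sarkosyl-free values are at 10.0 or above.

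Members were more frequent just after transcription starts than among all shared sites, as were sites short in all 4 tables. Of the shared sites 0 to 60 bp downstream of an annotated start, outside small RNA genes, 105 of 532 were members (19.7%, 95% Wilson interval 16.6% to 23.3%), against 12.4% of all shared sites, and 31 (5.83%) had the reverse pattern. In the same stretch 93 sites (17.5%) were short in all 4 tables, against 13.4% of all shared sites. The intervals count sites as if independent and cover counting error only. From 61 to 100 bp, 24 of 139 sites were members (17.3%), and from 101 to 300 bp 8 of 174 (4.60%). The share did not decline gradually. It was 18.5% to 21% in every bin up to 60 bp, 16.3% from 61 to 80 bp and 19.1% from 81 to 100 bp, and 4.50% from 101 to 200 bp (5 of 111 sites).

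Sites 0 to 60 bp after a start made up 28.6% of members and 16.4% of the other shared sites, a difference of 12.2 points, and of 5.97 to 12.6 points over the pairs of tables. Within 300 bp of a start, members outside small RNA genes lay at a median of 39.0 bp (n = 137), those of the reverse pattern at 63.5 bp (n = 64), and sites long in all 4 tables at 62.5 bp (n = 98). Sites short in all 4 tables lay at 38 bp (n = 130), near the members. Members of the 0 to 60 bp class had median times of 0.694 and 0.890 with sarkosyl and 3.65 and 10.1 without it.

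**Figure D3:**
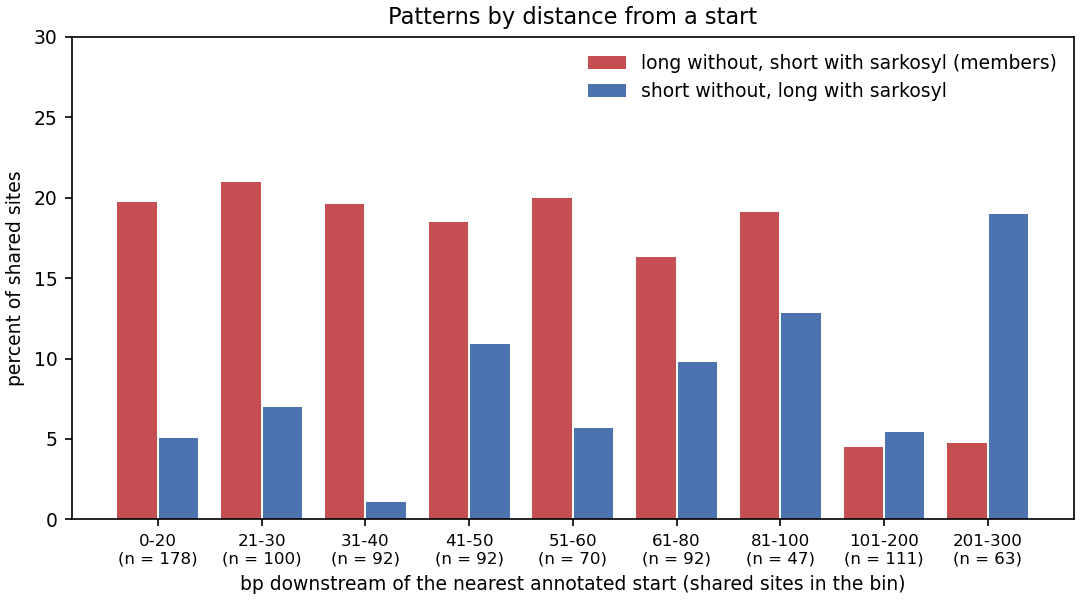
Percent of shared sites that were members, or had the reverse pattern, by distance in bp downstream of the nearest annotated start on the same strand, with the number of shared sites under each bin. The members' bars stay between 16.3% and 21% up to 100 bp and are at 4.50% and 4.76% beyond.

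By part of the transcript, 90 of 477 shared sites in annotated 5′ UTR were members (18.9%), 18 of 279 in coding sequence (6.45%) and 11 of 93 in 3′ UTR (11.8%). These counts include sites in small RNA, tRNA and mitochondrial genes and on ribosomal RNA contigs. Without those and alternate contigs, members were 90 of 467 (19.3%), 18 of 213 (8.45%) and 11 of 79 (13.9%), against 14.6% of all sites so restricted. Within coding genes beyond the start, 28 of 269 intronic sites were members (10.4%) and 20 of 179 exonic sites (11.2%), with 26 and 16 sites of the reverse pattern. Up to 5000 bp past the end of a coding gene, 19 of 243 sites were members (7.82%) and 31 had the reverse pattern (12.8%). The shares in introns and exons were below the 12.4% of all shared sites and the 14.6% of the restricted sites. In introns members minus others was -1.64 points, and -2.70 to -0.290 points over the pairs of tables. In exons it was -0.666 points, and -1.66 to 1.30 points over the pairs. Past the gene end, members minus others was -3.44 points, and -4.69 to -0.887 points over the pairs of tables.

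Among sites in no gene on their strand, the share was higher for antisense and intergenic sites, but not past a coding gene end. Antisense sites within coding genes were members in 25 of 106 cases (23.6%, interval 16.5% to 32.5%), with 6 of the reverse pattern, and these members had median times of 0.797 and 0.952 with sarkosyl and 2.18 and 4.78 without. Intergenic sites were members in 70 of 367 cases (19.1%, interval 15.4% to 23.4%), with 39 of the reverse pattern. The differences between members and other shared sites were 3.70 points for antisense and 7.65 for intergenic sites. Over the pairs of tables, whose site sets all include the members, they were 2.77 to 3.86 and 3.61 to 6.24 points. They became -0.0279 and -0.328 points when the cuts were taken over all sites of each table. Sites upstream of a coding start on the opposite strand, where divergent transcription runs, were members in 17 of 130 cases (13.1%). That share was near the 12.4% of all shared sites.

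Small RNA genes as a whole held few members and many sites of the reverse pattern, though snRNA genes did not have the excess of the reverse pattern. These genes encode short stable RNAs such as the snoRNAs, which guide modification of ribosomal RNA and are trimmed from introns of host transcripts. Of 315 shared sites there, 5 were members (1.59%) and 116 had the reverse pattern (36.8%). No member was found among 206 sites in snoRNA or scaRNA genes, which allows a share of up to 1.46%, while 81 (39.3%) had the reverse pattern. In snRNA genes 3 of 39 sites were members and 3 had the reverse pattern (7.69% each). Over the pairs of tables the members' share there was 7.69% to 51.3%. In other small RNA genes 2 of 70 sites were members (2.86%) and 32 had the reverse pattern (45.7%). Within 3 bp of a small RNA's annotated end, where the mature RNA ends, 3 of 220 sites were members (1.36%) and 84 had the reverse pattern (38.2%). The part of mature RNA in these values was not tested. The deficit in small RNA genes, -10.6 points, was -13.0 to -5.67 points over the pairs of tables.

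The transcripts of other polymerases were a minor part. Of 111 sites in tRNA genes 5 were members (4.50%), and of 42 on contigs with ribosomal RNA genes 5 were (11.9%). On the mitochondrial genome, which its own polymerase transcribes from both strands, 8 of 67 minus-strand sites were members (11.9%) and 1 of 92 plus-strand sites (1.09%). Over the pairs of tables these shares ranged from 22.4% to 50.7% and from 3.26% to 45.7%, and the difference between members and others in the mitochondrial share, -3.32 points, ranged from -3.67 to 6.24, so its direction depended on the tables. Without small RNA, tRNA and mitochondrial sites and those on ribosomal RNA or alternate contigs, 336 of 2296 sites were members (14.6%) and 212 had the reverse pattern (9.23%). Sites in ribosomal RNA repeats on chromosome 21 and in nuclear copies of mitochondrial genes stayed in these counts. On the plus strand lay 213 of the 367 members (58.0%) and 50.5% of the other shared sites. The sarkosyl tables held no minus-strand site on chromosome X, where 10 of 49 shared sites were members (20.4%).

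**Figure D4:**
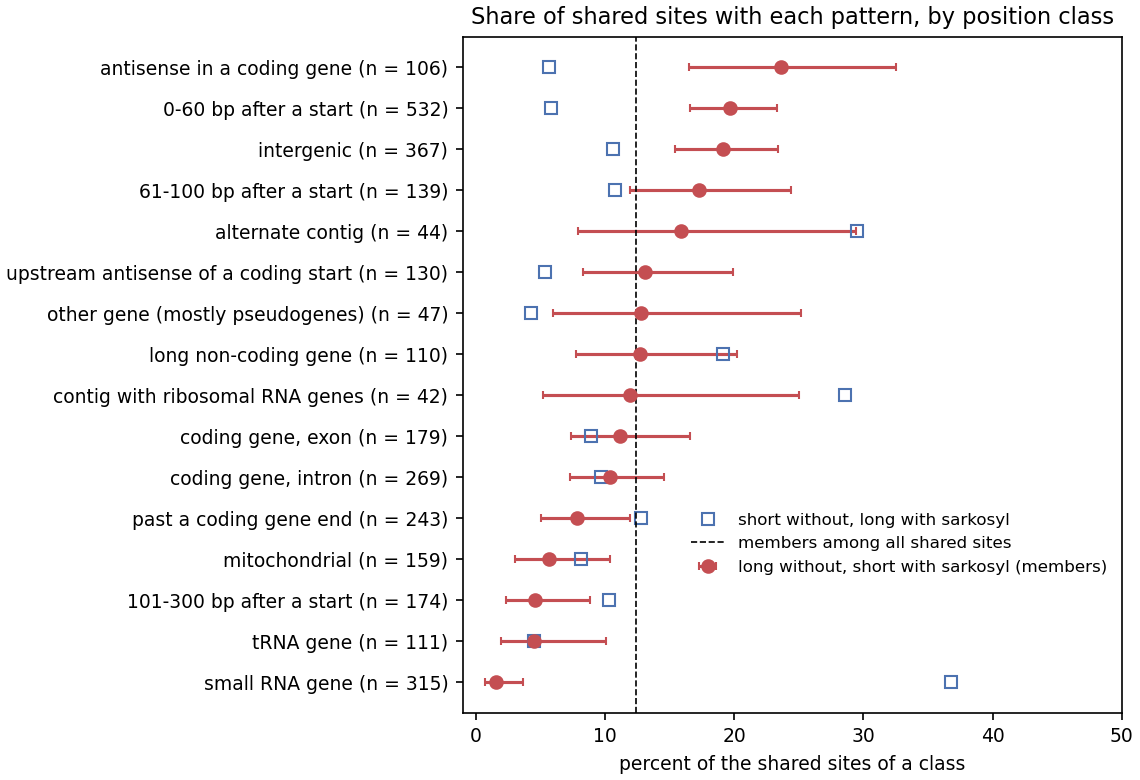
Percent of the shared sites of each position class that were members (circles, with 95% Wilson intervals) or had the reverse pattern (squares); the dashed line is the 12.4% of members among all shared sites. Antisense sites, sites 0 to 60 bp after a start and intergenic sites lie above the line with intervals that do not include it. Sites 101 to 300 bp after a start, past a coding gene end, in tRNA genes and on the mitochondrial genome lie below it in the same way. Small RNA genes are lowest at 1.59% with the reverse pattern at 36.8%. The intervals count sites as if independent and cover counting error only.

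Members were scattered over genes. Of 1247 genes with a shared site on their sense strand, 196 held a member, 182 of these held 1, 12 held 2 and 2 held 3 or more. On the sense strand of a gene lay 212 members, 164 of them in coding genes, and 155 members lay in no gene on their strand. Of the 61 genes with a member and at least 2 shared sites, 3 had every shared site as a member. In most genes with several sites, members therefore stood beside sites of other patterns.

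HNRNPA2B1, a nuclear RNA-binding protein of the hnRNP family, had 3 members among 7 shared sites. Its member 81 bp after a start had times of 0.858 and 0.908 with sarkosyl and 10.9 and 19.2 without. A neighbouring site at 87 bp was no member, with 1.17 and 1.61 with sarkosyl and 3.34 and 3.51 without. Its 4 non-members included an exonic site at 5.99 and 2.64 with sarkosyl and 0.439 and 6.94 without, where the sarkosyl-free replicates fell on both sides of the cut. The non-coding gene FP671120.1 also had 3 members, among 11 shared sites, but lies in ribosomal RNA repeats on chromosome 21 with near-identical copies.

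HSP90AB1, a constitutive cytosolic HSP90 chaperone, had 2 shared sites, both members. The first, 68 bp after an annotated start, had 0.562 and 0.806 with sarkosyl and 6.94 and 76.9 without. The second, in an intron 3060 bp after a different annotated start, had 0.878 and 1.07 with sarkosyl and 13.5 and 8.40 without. CHST8, a carbohydrate sulfotransferase, had 2 of 2 sites as members, 14 and 34 bp after its start. Pausing lasted 0.555 and 0.738 with sarkosyl and 2.99 and 3.38 without at the first, and 0.951 and 0.990 against 1.32 and 2.31 at the second. The first CHST8 site has C followed by T in the sequence shown above.

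SRSF3, a splicing factor of the SR family, had members 12 and 39 bp after the same annotated start. The site at 39 bp had 0.787 and 0.877 with sarkosyl and 3.65 and 23.8 without. The remaining shared site of SRSF3, in an intron 172 bp after a different annotated start, was no member. It had 0.951 and 1.52 with sarkosyl and 1.80 and 0.506 without. RAN, the GTPase of nuclear transport, had the opposite order. Its site 46 bp after a start had 1.38 and 1.69 with sarkosyl and 0.373 and 0.307 without, the reverse pattern. Of its 3′ UTR sites, 2 were members. One of these had 0.682 and 0.987 with sarkosyl and 15.2 in both sarkosyl-free tables. NOP56, a core protein of box C/D snoRNPs and itself a host of snoRNAs, had members 38 and 44 bp after its start and none among its 4 sites in snoRNA genes. The member at 38 bp had 0.654 and 0.883 with sarkosyl and 2.89 and 2.84 without. At the SNORD110 site inside NOP56 the values were 2.68 and 1.86 with sarkosyl and 0.939 and 1.05 without.

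Gene lists are described by their counts beside the 12.4% of all shared sites, and most hold few sites. Among genes of pausing and elongation control, 2 of 5 shared sites were members. They were the HEXIM1 site above and a site 60 bp after a start of NELFCD, a subunit of NELF, with 1.16 and 0.898 with sarkosyl and 2.66 and 3.64 without. Among genes of RNA polymerase II subunits, 1 of 3 sites was a member, 30 bp after the start of POLR2E, with 0.702 and 0.967 with sarkosyl and 1.56 and 13.9 without. Over all sites of a list, the median centred difference between buffers was 0.41 for pausing and elongation control and -0.97 for polymerase II subunits. It was -0.29 for the immediate early factors below, against -0.22 over all shared sites. Of the immediate early transcription factors, 2 of 13 sites were members (15.4%), in IER2 and JUN. By the annotation used they lay far from a start, at 1128 and 1144 bp. IER2 had 0.983 and 0.755 with sarkosyl and 13.5 and 27.0 without.

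Among RNA-processing genes, 5 of 24 sites of hnRNP genes (20.8%) and 2 of 11 of SR factors (18.2%) were members. HNRNPH1 had a site 28 bp after a start with 0.517 and 0.695 with sarkosyl and 5.18 and 19.2 without. Of the snoRNA host genes, 6 of 35 sites were members (17.1%), including SNHG8 at 39 bp with 1.15 and 1.04 with sarkosyl and 11.2 and 21.7 without. Of nucleolar ribosome assembly genes 2 of 5 sites were members, both in NOP56. Of the polymerase II snRNA genes 1 of 28 sites was a member (3.57%). Polymerase III transcripts had 2 of 22 (9.09%), a share near that of all shared sites, and 8 sites of the reverse pattern (36.4%). Over all sites of a list, the median centred difference between buffers was -0.13 for hnRNP genes, -0.63 for SR factors and 0.22 for snoRNA hosts. It was 1.78 for nucleolar assembly, 0.20 for polymerase II snRNA genes and -1.44 for polymerase III transcripts.

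Of the translation genes, 10 of 75 sites in genes of cytosolic ribosomal proteins were members (13.3%), a share near that of all shared sites. RPL10A at 31 bp had 0.723 and 0.813 with sarkosyl and 8.93 and 16.1 without, and RPL37A at 15 bp had 0.603 and 0.732 with sarkosyl and 8.00 and 28.6 without. Translation factors had 3 of 23 (13.0%), in EIF4G2 and EEF1A1, and EEF1A1 has processed copies elsewhere in the genome. EIF4G2 at 38 bp had 0.531 and 0.702 with sarkosyl and 4.57 and 17.9 without. Mitochondrial ribosomal proteins had 2 of 3, in MRPL18 and MRPS25. MRPS25 at 8 bp had 0.595 and 0.685 with sarkosyl and 2.17 and 3.97 without. Over all sites of a list, the median centred difference between buffers was 0.87 for cytosolic ribosomal proteins, 0.65 for translation factors and 2.07 for mitochondrial ribosomal proteins.

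Heat shock proteins and chaperones had 5 of 14 sites as members (35.7%) and none of the reverse pattern, in HSP90AB1, HSP90AA1, DNAJA1 and CCT5. HSP90AA1, the inducible cytosolic HSP90, had a site 38 bp after a start with 0.714 and 0.685 with sarkosyl and 3.30 and 25 without. The replication-dependent histones, which package newly made DNA, had 6 of 32 (18.8%), 4 of them in the HIST2 copies HIST2H2AA3, HIST2H2AA4, HIST2H3A and HIST2H3C, whose near-identical sequences make the assignment uncertain. Over all 32 histone sites the median centred difference between buffers was -0.88, against -0.22 over all shared sites. It was 0.69 for the heat shock and chaperone list and -0.15 for the zinc finger list. Zinc finger genes had 6 of 46 (13.0%). ZNF227 at 54 bp had 0.596 and 0.645 with sarkosyl and 8.55 and 62.5 without.

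The metabolic and structural lists held single members. Nuclear genes of oxidative phosphorylation had 1 of 7 sites (14.3%), at 14 bp in ATP5PO, with 0.631 and 1.03 with sarkosyl and 12 and 23.3 without. Glycolysis enzymes had 1 of 13 (7.69%), at 45 bp in ALDOA, with 0.799 and 0.816 with sarkosyl and 10.6 and 37.0 without. Actin, tubulin and vimentin genes had 1 of 2, at 60 bp in TUBA1B, and proteasome subunits had 0 of 4. Over all sites of a list, the median centred difference between buffers was -0.41 for oxidative phosphorylation and -0.13 for glycolysis. It was 0.18 for actin, tubulin and vimentin and 0.64 for the proteasome.

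With the cuts of the rule, members lay near other members more often than other sites did. Of 62 members with another shared site within 50 bp on the same strand, the nearest was a member in 22 (35.5%), against 41 of 399 other sites (10.3%). The members' share was 9.52% with cuts over all sites of each table and 11.1% with a margin of 0.5 log2 units from the cuts. It was 0% with both quartiles on the same side. These choices left 141, 97 and 31 members. The other sites were not compared under them, and the cause of the lower shares was not tested. Within 10 bp the shares were 16 of 34 (47.1%) and 18 of 189 (9.52%). Neighbouring sites are not independent, and the part of shared reads was not tested. Most members still stood alone, and joining members less than 10000 bp apart gave 302 single sites, 21 pairs and 5 runs of at least 3.

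The run with most members was on the mitochondrial minus strand, with 8 among 30 shared sites between positions 10672 and 16428. These had 0.804 to 1.20 and 0.951 to 1.19 in the sarkosyl tables, and 1.48 to 12.5 and 3.36 to 14.3 in the sarkosyl-free tables. A second run lay in intergenic sequence on chromosome 5, minus strand, with 6 members among 32 shared sites from 8322754 to 8332603. There the sarkosyl times were 0.518 to 0.748 and 0.845 to 1.12, and the sarkosyl-free times 1.43 to 7.35 and 1.90 to 14.5. In both runs most shared sites were not members.

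The JUN region held 3 members among 7 shared sites on the minus strand of chromosome 1. The member in the 5′ UTR of JUN, a subunit of the AP-1 transcription factor, had 0.952 and 1.12 with sarkosyl and 4.20 and 12 without. Past the gene's end, 2 neighbouring members had 0.964 and 0.885, and 0.724 and 0.801, with sarkosyl, against 7.09 and 2.40, and 5.46 and 13.7, without. Between them and the 5′ UTR the exonic sites were long in the sarkosyl tables, such as one with 6.17 and 5.81 with sarkosyl and 11.0 and 22.7 without.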

How the data were processed

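Per the submitters' processing notes, reads were handled with cutadapt 1.14, HISAT2 2.1.0, SAMtools and bedtools on hg38. The model behind the rates and its settings are not given in the sources used here. Per the file headers, each deposited table gives chromosome, strand, position, and the mean, SD, Monte Carlo error, quartiles and median of a rate, and a pausing time, which equals 1 over the deposited median throughout. All 4 tables were used, and 0 value columns were left unmapped. The sample labelled Trp treatment is not analysed here.

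Positions were matched by chromosome, strand and coordinate, and annotated with GENCODE release 29 (GRCh38) using Python 3.11.15, pandas 2.3.3, numpy 2.4.6 and scipy 1.17.1, with figures from matplotlib 3.10.9. In each table and strand 74 to 89 sites fell on the last base of small RNA genes and 12 to 24 on either base beside it, so positions were read as counted from 1 at the RNA 3′ end. Small RNA genes were extended by 10 bp past their end, upstream antisense sites lay within 1000 bp of a coding start, and each site has 1 class. Distances after a start were taken from the nearest annotated transcript start upstream on the same strand. Sites of 1 gene can therefore have different starts. Gene lists used symbol patterns, restricted to coding genes except for the small RNA and snoRNA host lists, after symbols that did not belong were removed. The rule for choosing members was tested on simulated tables.

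The members, position classes and lists were chosen with earlier results of these data known. Sites named singly were the 10 members of widest gap, the 10 genes with most members, up to 3 members of each list, the sites next to a cut, and the widest gap of each class; examples in the text come from these. No test was made, since the rule used all 4 tables. Shares are given with their range over the 4 pairs of 1 sarkosyl-free and 1 sarkosyl table, or with Wilson intervals at 95% for counting error only. A count of 0 was given the limit that 3 counts allow. Sequence could be read for 47.4% of members and 49.3% of other sites, those in annotated exons or promoter windows.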

Additional observations from a re-analysis of the deposited data

How the results depend on the processing

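The member set depended on the cuts, and 11 results were recomputed under 132 alternatives, of which 78 stayed within the replicate spread (within 1.5 times for the number of members, within the Wilson interval for neighbours), 41 moved further and 13 changed sign. The number of members was 141 with cuts over all sites of each table, 97 at 0.5 log2 units beyond the cuts, 31 with both quartiles on the same side, 213 on the plus strand alone, and 463 to 591 when 1 table was left out, where fewer conditions are set. The excess of members 0 to 60 bp after a start (12.2 points) kept its sign in every alternative: 20.6 with cuts over all sites, 26.2 with the 0.5 margin, 53.6 with quartiles, 10.7 with 1 site per 1000 bp, 9.46 without small RNA, tRNA, mitochondrial and contig sites (added after seeing the data), and 9.30 to 13.7 leaving out 1 table. The difference in C at the site was 27.4 with the margin, 41.2 with quartiles and 13.5 to 21.2 leaving out 1 table, and that in C followed by T was 29.2 with cuts over all sites, 36.6 with the margin, 49.4 with quartiles and 16.0 to 25.6 leaving out 1 table. The deficit in small RNA genes (-10.6 points) kept its sign in every alternative and was -7.01 without sarkosyl-free replicate 1.

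The share within 300 bp of any start, small RNA starts included, minus that of the other sites (-1.73 points) had no stable sign: it was 9.16 with cuts over all sites, 13.9 with the margin, 40.9 with quartiles, 4.65 without small RNA and the other classes named above, 0.952 at 200 bp, 5.68 with coding starts only, and -6.05 to 1.98 leaving out 1 table. The share on the sense strand of coding genes (-4.27 points) was 9.46 with cuts over all sites, 4.28 with the margin, 19.5 with quartiles, -5.98 with 1 site per 1000 bp, -2.87 without the small RNA and other classes, and -5.54 to -2.21 leaving out 1 table. Antisense and intergenic differences became -0.0279 and -0.328 with cuts over all sites, and the intergenic one -5.98 with quartiles. The share of members with a member as nearest site (35.5%) was 9.52% with cuts over all sites, 11.1% with the margin and 0% with quartiles. The median difference between buffers (2.24) was 2.88 with the margin, 3.75 with quartiles and 1.53 to 2.17 leaving out 1 table. The cause of these changes was not tested.

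No paired analysis was possible because the results come from no test. The planned GC content around all members and C at the site over all of them were not run, since under 80% of members have a sequence, and the latter was run for sites 0 to 100 bp after a start. With 1 site per 1000 bp no neighbour within 50 bp is left. Depth is unknown, so its limits cannot be given.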

Other observations

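Unshared sites, present in fewer than 4 tables and so outside the rule, were read within 50 bp of members on the same strand and set beside the unshared neighbours of the other shared sites. With sarkosyl, their median centred log2 pausing time was -0.23 in replicate 1 (397 sites), against 0.02 beside the other shared sites, and -0.29 in replicate 2 (356 sites), against -0.17. Without sarkosyl it was 0.46 in replicate 1 (300 sites), against 0.45, and 2.15 in replicate 2 (222 sites), against 1.42. Over all unshared sites the medians were 0.31 and 0.07 with sarkosyl and 0.81 and 2.61 without, above those of the members' neighbours in every table. Beside sites of the reverse pattern they were 0.41 and -0.06 with sarkosyl and 0.60 and 0.42 without. The members' neighbours were the lowest of these groups in both sarkosyl tables, while their place in the sarkosyl-free tables differed between the replicates. These differences were not tested.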
